A study of Mus musculus with 9 samples.

Results

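Moderate intraocular pressure (IOP) elevation was compared with Control in purified retinal ganglion cells (RGCs) of the mouse by RNA sequencing. The 3 libraries labelled Moderate IOP and the 3 labelled Control were taken by their labels, 6 of the 9 libraries of the study, and the other 3 came from Mild IOP. All mice were C57BL/6J, with an age of 8 weeks in the sample labels and of 6 weeks in the text for the series. The paper's methods give 6 weeks as the age at injection, and retinas were taken after a further 2 weeks. The left eye of each mouse received an injection into the anterior chamber, of saline in Control and of polystyrene microbeads in both IOP groups, and IOP was followed for 2 weeks. Microbeads slow the outflow of aqueous humor, and eyes with the larger rise of IOP formed the Moderate IOP group. RGCs were then isolated by immunopanning, in which plates coated with a lectin and with antibodies removed vascular cells, macrophages, microglia and amacrine cells before cells were caught by the surface protein Thy1.2. Total RNA was combined into 1 pool for each group, from fewer retinas for Moderate IOP than for Control, and libraries were made from 3 portions of each pool. A difference between the groups is therefore a difference between 2 pools, and its error and p-value cover the preparation and sequencing of libraries but not the spread between mice.

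RGCs are the neurons whose axons form the optic nerve and carry the output of the retina to the brain. Elevated IOP strains these axons where they leave the eye, and glaucoma is the disease in which RGCs are lost. Injured RGCs are known to induce genes of axon growth and stress, while surrounding glia and microglia can turn on acute-phase, iron-handling and interferon genes. Amacrine cells, the inhibitory interneurons that contact RGCs, share the Thy1 antigen in part and are the cell type most difficult to remove from such preparations.

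Expression was given as FPKM, fragments per kilobase of transcript relative to the number of mapped fragments, and was scaled between libraries. Fold-changes were differences of group means of log2(scaled FPKM + 1), which understate the change of low genes. They were tested with limma over 13043 genes, and differentially expressed genes (DEGs) had a Benjamini-Hochberg false discovery rate (FDR) below 0.1. Values are scaled FPKM for replicates 1, 2 and 3 of a group unless stated otherwise, and errors of log2 fold-changes are SE (n = 3 technical replicates per group).

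The 6 libraries had derived depths of 4370000 to 7810000 fragments, and 14182 to 14733 genes per library had an FPKM above 0. Across genes the correlation between libraries was 0.954 to 0.965 within Control, 0.945 to 0.955 within Moderate IOP and 0.940 to 0.953 between the groups. A microRNA gene held 9.14% of the summed FPKM of Moderate IOP replicate 3. Another held 20.52% of that of Mild IOP replicate 2, which is in neither group but shares the scaling, the filter and the variance estimate.

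In all, 240 genes were DEGs, 1.84% of the genes tested. Those higher in Moderate IOP were 0.951% of the tested genes and those lower, 116 genes, were 0.889%. With a fold-change of at least 1.5 as well, 118 were higher (0.905%) and 103 lower (0.79%). The median fold was 1.97 for higher DEGs and 1.86 for lower DEGs. The libraries of the groups did not overlap for any of the 240 DEGs, and this was also true of 2535 of the tested genes (19.4%), with 9.95% above Control and 9.48% below it. The count depended on single libraries. It was 61 without Control replicate 1, 86 without Control replicate 2, 110 without Moderate IOP replicate 2, 146 without Moderate IOP replicate 1 and 141 without Mild IOP replicate 1, which is in neither group but shares the scaling, the filter and the variance estimate. No DEG changed sign in any of 21 alternative fits, but with separate groups, leaving out a library could hardly change a sign. Of the DEGs, 43 were called in every alternative that tested them, 21 higher and 22 lower. Counts of DEGs in the lists that follow are to be read beside the 1.84% of all tested genes.

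**Figure D1:**
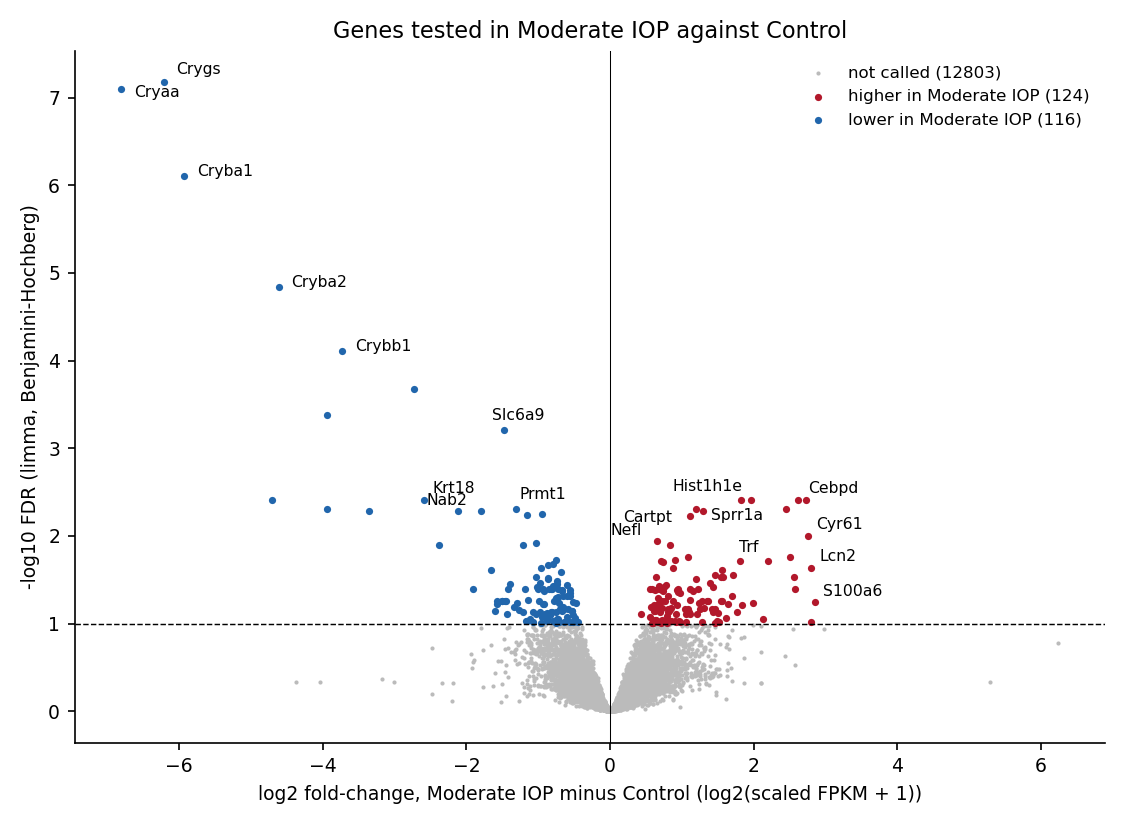
Log2 fold-change (Moderate IOP minus Control, on log2(scaled FPKM + 1)) against −log10 FDR for 13043 genes, with higher DEGs in red, the 116 lower DEGs in blue and the FDR threshold of 0.1 dashed. The lowest FDR values belonged to crystallins at the left, and the higher DEGs reached log2 fold-changes of 2.85.

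The identity of the preparation was checked with markers of retinal cell types. The 20 RGC markers summed to 2645, 2817 and 2720 scaled FPKM in Control and to 4079, 3922 and 4027 in Moderate IOP, and the groups did not overlap. Of these 20 genes, 16 were higher in Moderate IOP and the median log2 fold-change was 0.36, beside 0.004 over all tested genes. The DEGs among them were Sncg, Nefl, Stmn2 and Uchl1, all higher, a share of 20% beside 1.84% of all tested genes. The 21 amacrine cell markers summed to 2666 to 2709 in Control and to 2198 to 2419 in Moderate IOP. Abundant members weigh most in such sums, so sums of different lists do not compare amounts of different cell types. Their median log2 fold-change was −0.08 over 17 tested genes, and Slc6a9 and Gad2 were lower DEGs. In pooled cells of this kind, fewer cells of a type and less RNA per cell cannot be told apart.

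Photoreceptor and lens transcripts were present and differed between the pools. The 18 rod markers summed to 871 to 951 in Control and 627 to 669 in Moderate IOP. None of the 18 had a log2 fold-change above 0, and their median was −0.47, with Sag and Pde6b among 3 lower DEGs. The 25 lens genes summed to 413, 494 and 378 in Control and to 17.6, 16.3 and 14 in Moderate IOP, and 11 of the 13 that were tested were lower DEGs. The lens sum in Mild IOP was 11 to 11.7, so that Control stood apart from both IOP groups. The 10 cone markers (33.4 to 36.8 in Control, 37.2 to 54.8 in Moderate IOP), 16 bipolar cell markers (136 to 223 and 217 to 272), 6 astrocyte markers, 9 oligodendrocyte markers and 16 endothelial and mural cell markers held no DEG. The defining oligodendrocyte genes Mog, Olig1, Olig2 and Sox10 and the endothelial genes Cdh5, Tie1 and Cldn5 were listed at 0 in all 6 libraries.

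Glial and myeloid markers were mixed. The 14 Müller glia markers summed to 1063 to 1137 in Control and 1198 to 1258 in Moderate IOP, with Rlbp1 and Apoe as higher DEGs and a median log2 fold-change of 0.45 over 11 tested genes. The 17 microglia and macrophage markers summed to 104 to 117 in Control and to 247 and 200 in Moderate IOP replicates 1 and 2, with replicate 3 also above every Control library, and none was a DEG. Of 15 tested members, 10 were above 0 and 5 below, and the median log2 fold-change was 0.17. Much of the sum in Moderate IOP replicates 1 and 2, but not in replicate 3, came from Fcer1g, an Fc receptor chain. Fcer1g was at 23.9, 23.5 and 21.2 in Control and at 150, 95.5 and 11 in Moderate IOP. Moderate IOP replicate 3 was below every Control library for Fcer1g, while replicates 1 and 2 were far above them. Cx3cr1, the microglial fractalkine receptor, was at 0.394, 1.44 and 1.13 in Control and at 0.798, 1.11 and 0.712 in Moderate IOP. The part of these cell type sums in the results that follow was not tested.

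**Figure D2:**
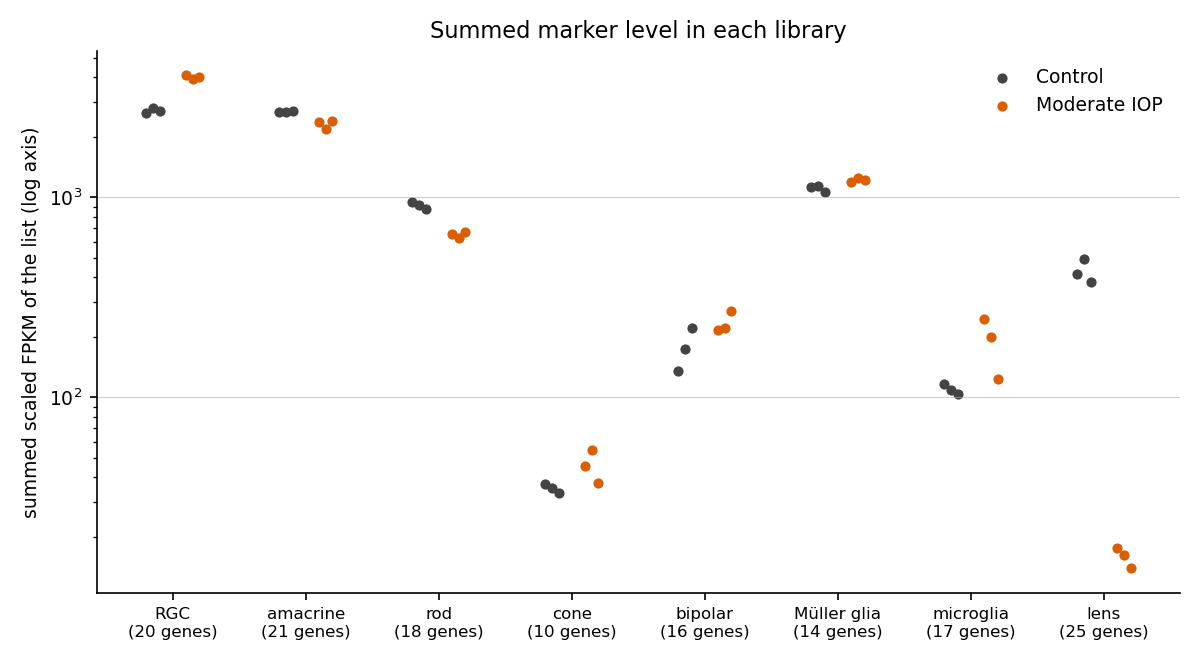
Summed scaled FPKM (log axis) of 8 marker lists in each library, with 3 Control (grey) and 3 Moderate IOP (orange) libraries per list. RGC sums were higher in Moderate IOP (3922 to 4079 against 2645 to 2817), and rod and lens sums were lower.

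Sex-linked transcripts differed between the pools as well. Ddx3y, a helicase gene of the Y chromosome, was at 2.49, 1.22 and 2.88 in Control and 0.254, 0.191 and 0.603 in Moderate IOP (log2 fold-change −1.22 ± 0.27, FDR = 0.073). Xist, the RNA of the inactive X chromosome, was at 2.81, 4.12 and 7.29 in Control and 9.69, 9.56 and 11.2 in Moderate IOP (1.03 ± 0.29, FDR = 0.14). Neither pair of groups overlapped. Both sexes entered the study, and the share of each sex in a pool cannot be told apart from the treatment.

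Neuronal and axonal genes stood among the most abundant higher DEGs. Cartpt encodes the CART neuropeptide, which marks a subset of RGCs. It was at 401, 410 and 414 in Control and at 920, 887 and 846 in Moderate IOP. The groups were far apart and each was narrow, and the change of 2.16-fold (log2 1.11 ± 0.15, FDR = 0.0058) was called in all 21 alternatives. Nefl, the light neurofilament subunit of axons, was at 353, 338 and 337 in Control and 523, 530 and 558 in Moderate IOP (1.57-fold, FDR = 0.011), and was also called in all 21. Nefm (log2 0.50 ± 0.13, FDR = 0.11) and Nefh (0.31 ± 0.20, FDR = 0.51), its heavier partners, were not DEGs.

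Sncg, the gamma-synuclein gene that is a classical RGC marker, was at 855, 931 and 948 in Control and 1424, 1357 and 1385 in Moderate IOP (1.52-fold, FDR = 0.071). Uchl1, a neuronal ubiquitin hydrolase, was at 390, 381 and 410 and at 560, 605 and 601 (1.49-fold, FDR = 0.041). Stmn2, a tubulin-binding protein of growing axons, was at 126, 159 and 149 and at 250, 212 and 213 (1.55-fold, FDR = 0.064). For each of the 3 genes every Moderate IOP library was above every Control library, as for all higher DEGs. Sncg and Stmn2 were called in 12 of 21 alternatives and Uchl1 in 16. Basp1 and Nrn1, which encode a growth cone protein and a neurite-promoting surface protein, were named after their values were seen. They were higher 1.59-fold (FDR = 0.051) and 1.67-fold (FDR = 0.043). Map1a, a microtubule-associated protein, was higher 1.78-fold (FDR = 0.068). Of 31 tested neurofilament, tubulin and microtubule genes, Nefl, Stmn2 and Map1a were the only DEGs, and the median log2 fold-change was 0.17.

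Actin-related genes were likewise picked from the higher DEGs after their values were seen and are not a list. Actb was at 379, 473 and 390 in Control and 725, 717 and 842 in Moderate IOP (1.84-fold, FDR = 0.023). Tmsb10, which binds actin monomers, was between 201 and 231 in Control and between 327 and 405 in Moderate IOP (1.64-fold, FDR = 0.041). Wasl, an activator of actin branching, and Rdx, a linker of actin to the membrane, were higher 1.71-fold (FDR = 0.037) and 1.70-fold (FDR = 0.055).

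Of 24 tested genes for neuropeptides and dense-core vesicle proteins, Cartpt and Pcsk1n were DEGs, and the median log2 fold-change was 0.11. Pcsk1n, the proSAAS precursor, was at 84.2, 82.3 and 97.6 in Control and 134, 136 and 144 in Moderate IOP (1.56-fold, FDR = 0.030). Gal, the galanin gene, was at 8.66, 10.4 and 11.3 and at 25.6, 16 and 13.5, with separate groups and an FDR of 0.17. Cplx1, a complexin of the vesicle release machinery, was higher 1.68-fold (FDR = 0.038) and was the only DEG of 41 such genes, whose median was −0.05. That was 2.44% of them, near the 1.84% of all tested genes. Chrna3, a nicotinic acetylcholine receptor subunit, was between 4.41 and 5.30 in Control and between 8.77 and 14.9 in Moderate IOP (2.23-fold, FDR = 0.043).

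Among genes that identify RGCs or their subtypes, Isl2, a LIM homeodomain factor of RGCs that project to the opposite side of the brain, was at 5.76, 4.89 and 7.72 in Control and 18.0, 15.3 and 12.4 in Moderate IOP (2.29-fold, FDR = 0.031). Isl2 was on none of the lists and was named after its values were seen. Spp1, osteopontin, which marks alpha-type RGCs, was at 16.5, 10.8 and 12.5 and at 38.5, 21.8 and 26.2 (2.07-fold, FDR = 0.068). Spp1 and Cartpt were the only DEGs of 24 tested subtype markers, and the median log2 fold-change of these was 0.07. Opn4, the melanopsin gene, was at 23.9, 27.3 and 24 and at 23.6, 23.4 and 20.7 (log2 −0.15 ± 0.16, FDR = 0.71). Rbpms, a widely used RGC marker, was at 84.9, 110 and 68.8 and at 283, 193 and 110, wide within Moderate IOP (log2 1.07 ± 0.30, FDR = 0.14). Pou4f1, which encodes Brn3a, was at 17.2, 17.9 and 19.2 and at 34.7, 24.4 and 31.8 (0.70 ± 0.18, FDR = 0.11), and its relative Pou4f2 at 8.98, 10.2 and 9.40 and at 10.7, 8.86 and 7.16 (−0.10 ± 0.19, FDR = 0.84).

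The calcium-related genes in this paragraph were picked from the higher DEGs after their values were seen and are not a list. Pcp4, a regulator of calmodulin, was the most abundant, with 697, 1142 and 1037 in Control and 1683, 1706 and 1791 in Moderate IOP (1.84-fold, FDR = 0.055). Calm3, a calmodulin gene, was at 171, 142 and 163 and at 271, 279 and 301 (1.79-fold, FDR = 0.013). S100a16, S100a10 and S100a6 are genes of the S100 family on chromosome 3. S100a16 was at 3.93, 3.41 and 3.18 in Control and 18.0, 14.9 and 12.3 in Moderate IOP (3.54-fold, FDR = 0.0038), and S100a10 was higher 1.90-fold (FDR = 0.095). The neuronal calcium sensors Hpcal1 (1.65-fold, FDR = 0.065) and Ncald (1.47-fold, FDR = 0.083) and the membrane-binding annexin Anxa5 (1.65-fold, FDR = 0.055) were higher too. Calm3 and S100a16 were called in all 21 alternatives, and S100a10 in 8.

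Genes of the acute-phase, iron and reactive list had the highest median of all lists, 1.11 over 15 tested genes of 25 listed. Of the 15, 6 were higher DEGs and none was lower, a share of 40% beside 1.84% of all tested genes. The list includes genes that passed the filter only through Moderate IOP. Most of the 15 were low, and with a mean of at least 5 scaled FPKM required, 7 of them remained and the median was 0.00. Trf, the iron carrier transferrin, was at 5.08, 3.55 and 1.22 in Control and 23.1, 15.5 and 14 in Moderate IOP (4.59-fold, FDR = 0.019). Cp, ceruloplasmin, a copper-containing ferroxidase, was at 0.380, 0.681 and 0.645 and at 3.24, 3.37 and 3.07 (2.71-fold, FDR = 0.074), and lost its call without any single library of the 6. Lcn2, lipocalin-2, a carrier of iron-binding siderophores made by reactive glia, was listed at 0 in Control replicates 1 and 2 and at 0.308 in replicate 3, and at 2.58, 15.4 and 6.59 in Moderate IOP (log2 2.81 ± 0.46, FDR = 0.023). Its values rested on 0, 0 and 1 fragments in Control and on 8, 88.1 and 25 in Moderate IOP. In each case the Moderate IOP libraries were above all Control libraries, as for all higher DEGs.

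Cebpd, a C/EBP transcription factor that drives acute-phase genes, was at 0.251, 0.646 and 0.541 in Control and 5.79, 9.15 and 9.65 in Moderate IOP (log2 2.62 ± 0.31, FDR = 0.0038), from 3 to 12 fragments in Control and 56.9 to 161 in Moderate IOP. Stat3, the signal transducer of interleukin-6 type cytokines, was at 7.12, 7.48 and 7.80 and at 17.2, 21.3 and 14.1 (2.16-fold, FDR = 0.041). Socs3, the feedback inhibitor of that pathway, was at 0.661, 0.684 and 0.805 and at 2.95, 6.38 and 1.39 (FDR = 0.16). S100a6, calcyclin, was at 0, 0.225 and 0.399 and at 4.22, 4.67 and 20.8 (log2 2.85 ± 0.59, FDR = 0.056), with most of its Moderate IOP level in replicate 3. The ferritin chains were abundant and not called, with Fth1 at 950, 1035 and 812 and at 1176, 1257 and 1107 (FDR = 0.27) and Ftl1 between 736 and 823 in all 6 libraries. Trf, Lcn2 and Cebpd kept their calls in every alternative that tested them.

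Of 23 tested regulators of axon injury and regeneration, Sprr1a was the only DEG, and the median log2 fold-change was −0.05. Sprr1a, a cornified-envelope protein induced in injured neurons that grow axons, was at 0.239, 0 and 0 in Control and 7.62, 3.87 and 3.83 in Moderate IOP (log2 2.45 ± 0.31, FDR = 0.0050), from 1, 0 and 0 fragments and from 21, 20 and 13. Gap43, the growth-associated protein, was at 155, 159 and 145 and at 215, 223 and 202, with separate groups and an FDR of 0.14. Jun, the injury-responsive AP-1 subunit, was at 17.1, 15.9 and 24.3 and at 29.3, 35.9 and 32.0 (FDR = 0.12). Atf3, another injury factor, was at 2.41, 0.986 and 0.421 and at 0.872, 0.727 and 0 (FDR = 0.55).

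Immediate early genes moved in both directions. Cyr61, a secreted matricellular protein, was at 0, 0.901 and 0.817 in Control and 4.97, 14.9 and 10.3 in Moderate IOP (log2 2.76 ± 0.39, FDR = 0.0099). Junb, an AP-1 subunit, was at 26.7, 20.3 and 22.8 and at 41.8, 37.2 and 57.7 (1.90-fold, FDR = 0.042). Nab2, a corepressor of Egr factors, fell from 34.2, 22.7 and 23.5 to 5.16, 6.77 and 9.10 (3.49-fold lower, FDR = 0.0052), and was called in all 21 alternatives. These 3 were the only DEGs of 20 tested genes, and the median was 0.05. Egr1, to which Nab2 binds, was at 74.9, 67.9 and 72.4 and at 58.6, 56.5 and 61.8 (log2 −0.28 ± 0.12, FDR = 0.29), and Fos was at 92.8, 111 and 106 and at 114, 113 and 130 (0.21 ± 0.13, FDR = 0.51). Dusp4, a phosphatase of MAP kinases named after its values were seen, was between 3.99 and 5.79 in Control and between 0.861 and 1.63 in Moderate IOP (2.64-fold lower, FDR = 0.035).

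Interferon and antigen presentation genes had a median log2 fold-change of 0.44 over 25 tested genes, of which 20 were above 0. The 2 DEGs were 8% of the list, beside 1.84% of all tested genes. Unadjusted limma p was below 0.05 for 9 genes, all higher, beside 8.03% higher among all tested genes. Irf9, the DNA-binding part of the complex that type I interferons activate, was at 4.09, 3.97 and 4.51 in Control and 9.41, 21.1 and 15.1 in Moderate IOP (2.98-fold, FDR = 0.029). Ifitm3, an interferon-induced membrane protein, was at 3.92, 4.55 and 0.944 and at 21.1, 14.4 and 11.3 (FDR = 0.11). The class I heavy chain H2-D1 was at 136 to 148 and at 147 to 180 (FDR = 0.53). Serping1, the C1 inhibitor of complement, was higher 2.14-fold (FDR = 0.074).

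The promoters of 4 of these higher DEGs are shown because they hold exact matches to sites of factor families named above. Letters are from RefSeq (build GRCm38.p6, which corresponds to mm10), on the strand of the gene, and capitals mark the match. The Cartpt stretch (chr13:99900738-99900845, minus strand) and the Isl2 stretch (chr9:55541088-55541148, plus strand) hold the cAMP response element TGACGTCA, the Lcn2 stretch (chr2:32387898-32387989, minus strand) holds the C/EBP pattern TTGCNNAA, and the Sprr1a stretch (chr3:92485971-92486077, minus strand) holds the AP-1 pattern TGANTCA at 2 places.
Cartpt: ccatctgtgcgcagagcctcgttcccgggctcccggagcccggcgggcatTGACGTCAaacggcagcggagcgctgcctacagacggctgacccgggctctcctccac
Isl2: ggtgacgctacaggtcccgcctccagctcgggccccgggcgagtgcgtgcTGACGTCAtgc
Lcn2: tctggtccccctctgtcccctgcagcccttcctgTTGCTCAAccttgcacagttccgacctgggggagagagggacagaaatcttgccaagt
Sprr1a: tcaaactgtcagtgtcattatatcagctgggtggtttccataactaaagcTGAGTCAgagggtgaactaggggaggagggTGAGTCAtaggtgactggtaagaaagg
In the 250 bases before the start, searched on both strands, the response element was held by 4.71% of 85 higher DEGs with a promoter in the table and by 3.16% of all 9736 tested genes with one. The C/EBP pattern was in 10.6% and 8.72%, the AP-1 pattern in 4.71% and 5.21%, and the interferon-gamma-activated pattern TTCNNNGAA, a STAT site, in 4.71% and 6.99%. For the 91 lower DEGs the shares were 2.2%, 9.89%, 5.49% and 2.2% in the same order. Each share rests on 2 to 9 DEGs, and the printed matches describe single promoters and not the DEGs as a set.

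**Figure D3:**
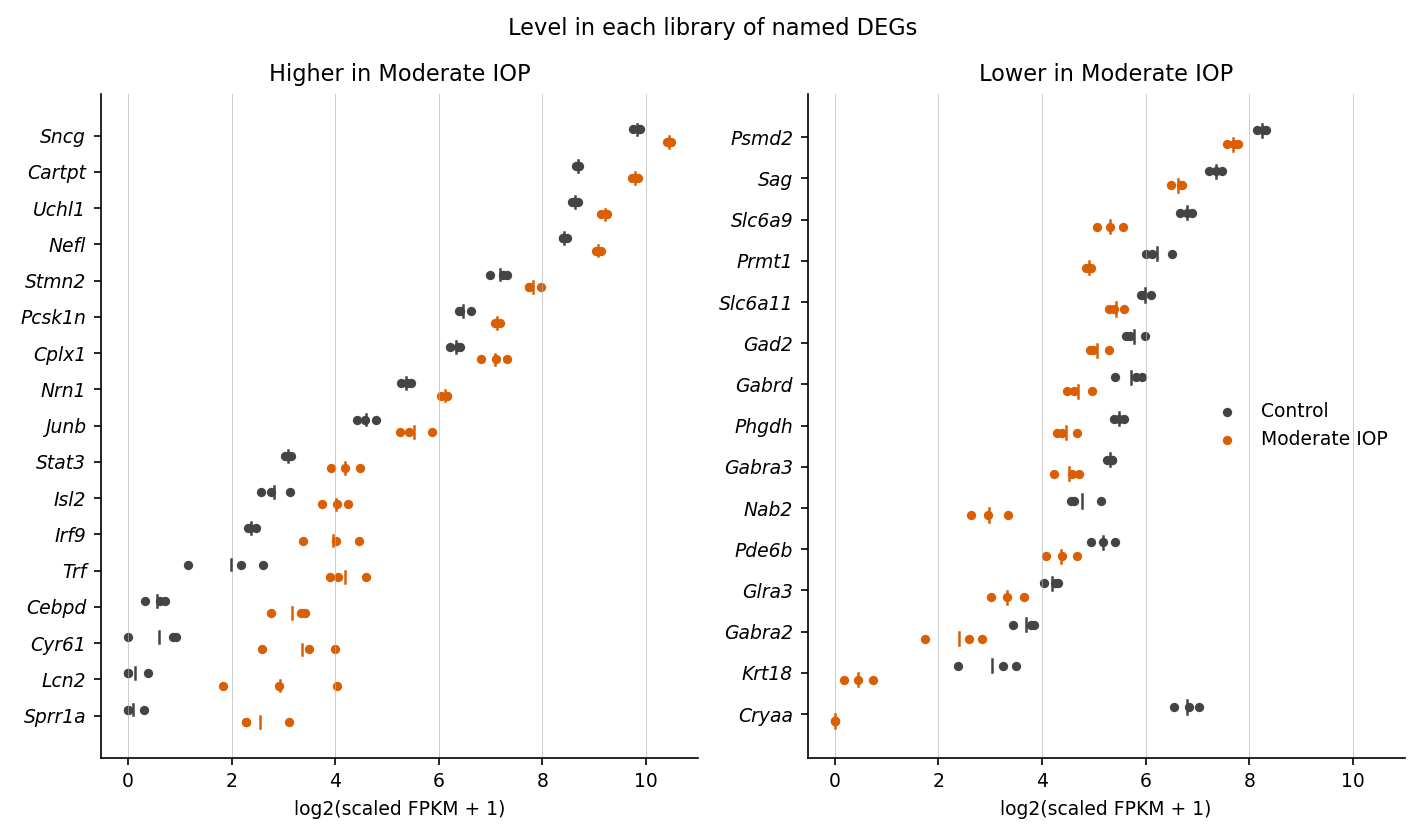
Level of named DEGs in each library, as log2(scaled FPKM + 1), with 3 Control (grey) and 3 Moderate IOP (orange) points per gene and a tick at each group mean. Groups were separate for every gene shown, as for all DEGs. The low genes at the bottom (Cebpd, Cyr61, Lcn2, Sprr1a) were spread more widely than abundant ones such as Cartpt.

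Several higher DEGs are expressed mainly by glia. Rlbp1, the retinaldehyde-binding protein of Müller glia, was at 4.38, 4.64 and 4.37 in Control and 21.8, 12.2 and 9.45 in Moderate IOP (2.69-fold, FDR = 0.068). Apoe, the lipid carrier made by glia, was at 82.0, 76.1 and 76.7 and at 119, 150 and 111 (1.6-fold, FDR = 0.060). Sparc, a matricellular protein of glia, was at 7.48, 3.79 and 5.23 and at 13.3, 27.5 and 25.7 (3.51-fold, FDR = 0.019), and was called in all 21 alternatives. Mlc1, a membrane protein of glial end feet, Car14, a carbonic anhydrase, and Id3, an inhibitor of basic helix-loop-helix factors, were higher 3.05-fold (FDR = 0.087), 2.94-fold (FDR = 0.055) and 5.94-fold (FDR = 0.041) and were named after their values were seen. Glul, the glutamine synthetase of Müller glia, was at 32.9, 29.0 and 28.0 and at 56.6, 47.3 and 36.3, with separate groups and an FDR of 0.15, and Slc1a3, the glial glutamate transporter, stayed between 1.80 and 2.38 in all 6 libraries.

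Hist1h1e and Rpph1 had the lowest p-values of the higher DEGs. Hist1h1e, a linker histone, was at 13.7, 12.8 and 24 in Control and 59.3, 83.6 and 58.4 in Moderate IOP (3.91-fold, FDR = 0.0038). Of 51 tested canonical histone genes, Hist1h1e, Hist1h4c, Hist1h2ac and Hist3h2ba were higher DEGs, none was lower, and the median log2 fold-change was 0.34. The share of DEGs was 7.84%, beside 1.84% of all tested genes. Coding sequences of core histone genes resemble each other closely, so the split of fragments among them is uncertain. Rpph1, the RNA of ribonuclease P, was at 12.2, 3.56 and 9.58 and at 48.6, 62.6 and 57.8 (6.63-fold, FDR = 0.0038), from 3 to 9 fragments in Control and 22 to 59.9 in Moderate IOP. Canonical histone mRNAs and Rpph1 mostly lack a poly(A) tail, whereas the cDNA was primed with oligo-dT.

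Further higher DEGs belong to none of the lists. Raly, an hnRNP-type RNA-binding protein, was at 17.5, 16.9 and 16.1 in Control and 41.0, 36.2 and 42.9 in Moderate IOP (2.30-fold, FDR = 0.0050). Cirbp, the cold-inducible RNA-binding protein, was at 181, 192 and 209 and at 314, 349 and 289 (1.63-fold, FDR = 0.019). Anp32a, an acidic nuclear phosphoprotein, and Emd, the nuclear envelope protein emerin, were higher 3.28-fold (FDR = 0.028) and 2.93-fold (FDR = 0.024). Crip2, a LIM-domain protein, was at 11.2 to 14.7 and at 29.9 to 35.4 (2.46-fold, FDR = 0.0052). Rnf13, a membrane-bound ubiquitin ligase, and Rgs4, which quenches G-protein signaling, were higher 1.88-fold (FDR = 0.019) and 1.67-fold (FDR = 0.020). Parm1 and Rprm, the reprimo gene of the p53 pathway, were higher 2.34-fold (FDR = 0.041) and 2.76-fold (FDR = 0.099), and Rprm was called in 5 of 21 alternatives. Raly, Cirbp, Anp32a, Emd, Crip2, Rnf13 and Rgs4 were called in all 21.

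Spr and Gchfr, genes tied to the supply of tetrahydrobiopterin, the cofactor of dopamine and nitric oxide synthesis, were DEGs in opposite directions. They were named in part after their values were seen and are not a list. Other genes of that supply are not given here. Spr, sepiapterin reductase, was at 16.2, 17 and 11.3 in Control and 31.1, 33.0 and 31.9 in Moderate IOP (2.12-fold, FDR = 0.017). Gchfr, the feedback regulator of the first enzyme of that pathway, was at 3.09, 3.38 and 1.98 and was listed at 0 in all 3 Moderate IOP libraries (FDR = 0.040), from 4 to 11.9 fragments in Control.

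Gene models with near-identical copies gave calls that are uncertain. Ccl21c, Gm10591 and Gm21541 were higher DEGs, and Ccl21c was among the 43 genes called throughout. All 3 lie in a cluster of Ccl21 copies on chromosome 4, and the locus of Gm10591 overlaps that of Ccl21b. Ccl21b was at 32.7, 34.0 and 29.9 in Control and 8.45, 7.60 and 30.2 in Moderate IOP. Summed over 5 symbols of the cluster, the level was 36.5, 35.9 and 32.2 in Control and 39.7, 37.3 and 35.4 in Moderate IOP, so that the 3 calls were not accompanied by a similar difference of the sum. Atp6v0c-ps2, a pseudogene of a proton pump subunit and a higher DEG (1.65-fold, FDR = 0.093), was at 846, 609 and 715 and at 1397, 1319 and 898. With Atp6v0c added, the sums were 2345, 2283 and 2521 and 2846, 2860 and 2943.

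Crystallins were the DEGs with the largest fall. Cryaa, the alpha-A crystallin chaperone of the lens, was at 130, 113 and 92.8 in Control and was listed at 0 in all 3 Moderate IOP libraries (FDR = 7.9e-08). Crygs and Cryba1 were at 71.3, 76.6 and 72.4 and at 50.6, 89.6 and 47.2 in Control and were listed at 0 in Moderate IOP (FDR = 6.7e-08 and 7.8e-07). Crybb2 was at 59.2, 63.4 and 74.2 and at 5.00, 0 and 1.68 (26.3-fold lower, FDR = 0.0038). Crybb3 kept the most, with 16.3, 28.5 and 25.4 and with 11.3, 8.85 and 9.42 (2.2-fold lower, FDR = 0.054), and gave most of the lens sum that remained in Moderate IOP. Cryba2, Cryba4, Crybb1, Crygb and Crygc were also lower, and 11 lower DEGs in all were listed at 0 in the 3 Moderate IOP libraries. Control replicate 2 had the highest Crygb, 40.7 beside 6.79 and 10.3. Lens fiber proteins are also known to be made in small amounts by retinal neurons and glia, and the source of these transcripts was not tested.

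Keratins of simple epithelia were also lower. Krt18 was at 8.49, 4.22 and 10.3 in Control and 0.661, 0.363 and 0.137 in Moderate IOP (log2 −2.59 ± 0.31, FDR = 0.0038). Krt8, its partner in simple epithelia, was at 2.44, 1.48 and 2.69 and was listed at 0 in Moderate IOP (FDR = 0.024). Mia, melanoma inhibitory activity, was at 3.29, 5.44 and 4.16 and was listed at 0 (FDR = 0.013), from 7 to 16 fragments in Control. Hbb-bt, a beta-globin gene, was at 1.2, 3.51 and 2.47 and at 0.263, 0 and 0.211 (FDR = 0.055), and was the only DEG of 3 tested erythrocyte markers.

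Several lower DEGs take part in inhibitory transmission. Slc6a9, the glycine transporter of glycinergic amacrine cells, was at 118, 111 and 101 in Control and 46.5, 38.8 and 32.6 in Moderate IOP. The highest Moderate IOP library was far below the lowest Control library, and the change (2.78-fold lower, FDR = 0.00062) was called in all 21 alternatives. Gad2, an enzyme that makes GABA, was at 51.2, 48.2 and 62.3 and at 29.3, 30.6 and 38.2 (1.63-fold lower, FDR = 0.059). Gad1, its more abundant partner, was at 532, 540 and 576 and at 429, 396 and 437 (log2 −0.38 ± 0.10, FDR = 0.11). Slc6a11, a GABA transporter, was at 59.0 to 67.3 and at 38.3 to 47.2 (1.47-fold lower, FDR = 0.095).

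Of 55 tested glutamate, GABA, glycine and nicotinic receptor subunits, 4 were lower DEGs, 1 was higher (Chrna3, above) and the median log2 fold-change was −0.07. The share of DEGs was 9.09%, beside 1.84% of all tested genes. The GABA-A receptor subunit Gabra2 was at 13.3, 12.9 and 9.82 in Control and 5.01, 6.21 and 2.36 in Moderate IOP (2.45-fold lower, FDR = 0.058). Gabrd, which gives extrasynaptic GABA-A receptors, was at 59.7, 55.5 and 41.2 and at 30.1, 23.6 and 21.4 (2.04-fold lower, FDR = 0.030). Gabra3 was lower 1.75-fold (FDR = 0.041) and the glycine receptor subunit Glra3 1.84-fold (FDR = 0.075). Each of the 4 had groups that did not overlap, as did every DEG. Receptors of other families, named after their values were seen, also fell. Drd1a, the D1 dopamine receptor, was at 45.8, 45.5 and 39.0 and at 23.5, 27.7 and 19.7 (1.81-fold lower, FDR = 0.030). Chrm1, a muscarinic receptor, and Tacr1, the substance P receptor, were 1.96-fold (FDR = 0.034) and 1.68-fold (FDR = 0.073) lower.

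Other abundant amacrine markers were not DEGs. C1ql2, a secreted synaptic protein, was at 349, 354 and 327 in Control and 304, 322 and 328 in Moderate IOP (FDR = 0.63). The homeodomain factor Pax6 was at 425, 413 and 477 and at 390, 386 and 402 (log2 −0.16 ± 0.10, FDR = 0.51). Tfap2b, an AP-2 factor of amacrine cells, was at 52.9 to 62.5 and at 49.0 to 70.0 (0.06 ± 0.15, FDR = 0.89). The peptide Vip and the dopamine-synthesis enzyme Th were at 23.4 to 35.4 and 13.2 to 25.1 in Control and at 34.3 to 48.4 and 19.3 to 28.5 in Moderate IOP (FDR = 0.29 and 0.67). The amacrine factor Ptf1a was listed at 0 in all 6 libraries.

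The rod DEGs encode proteins of the light response. Sag, the rod arrestin, was at 177, 164 and 148 in Control and 89.1, 103 and 102 in Moderate IOP (1.65-fold lower, FDR = 0.041). Pde6b, a subunit of the rod phosphodiesterase, was at 41.7, 35.4 and 29.9 and at 24.4, 15.8 and 19.9 (1.75-fold lower, FDR = 0.073). Gnat1, rod transducin, was at 147 ± 21.3 (mean ± SD, n = 3) in Control and at 84.4, 103 and 109 in Moderate IOP, with separate groups and an FDR of 0.12.

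Biosynthetic enzymes held single lower DEGs. Phgdh, the first enzyme of serine synthesis, was at 44.1, 47.1 and 40.9 in Control and 18.5, 20.0 and 24.7 in Moderate IOP (2.05-fold lower, FDR = 0.012), and was called in all 21 alternatives. It was the only DEG of 14 tested serine and one-carbon genes, whose median was −0.25. The next enzymes Psat1 and Psph were at 23.8 to 33.1 and 21.3 to 28.9 in Control and at 18.3 to 27.4 and 16.1 to 30.7 in Moderate IOP (FDR = 0.56 and 0.72). Fads2, a fatty acid desaturase, was at 43.4 to 56.8 and at 23.1 to 30.5 (1.83-fold lower, FDR = 0.031).

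Prmt1, the main arginine methyltransferase, was at 90.5, 63.3 and 69.1 in Control and 27.9, 29.9 and 28.9 in Moderate IOP (2.49-fold lower, FDR = 0.0050). The Moderate IOP libraries lay close together and far below Control. Wdr77, a cofactor of another arginine methyltransferase, Hdac5, a histone deacetylase, and Rbbp4, a histone chaperone, were 1.62-fold (FDR = 0.067), 1.77-fold (FDR = 0.041) and 1.69-fold (FDR = 0.051) lower. Hdac5 was the only DEG of 35 chromatin and DNA methylation enzymes (2.86%, beside 1.84% of all tested genes), with a median of 0.05. Ewsr1, an RNA-binding protein, was at 181 to 189 and at 119 to 128 (1.48-fold lower, FDR = 0.044). AI847159 was at 11, 7.47 and 9.51 and at 0.765, 0.276 and 0.627 (log2 −2.73 ± 0.22, FDR = 0.00021), on 38.9 to 62.7 fragments in Control and 1.99 to 3 in Moderate IOP.

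Nsmf, a messenger from NMDA receptors to the nucleus, was at 60.3, 57.5 and 67.9 in Control and 36.4, 36.3 and 36.3 in Moderate IOP (1.68-fold lower, FDR = 0.019). Dapk1, death-associated protein kinase, was at 25.1, 24.4 and 23.7 and at 9.90, 11.1 and 8.83 (2.33-fold lower, FDR = 0.013). Fam115a was at 71.8, 66.0 and 68.7 and at 31.6, 39.8 and 34.9 (1.92-fold lower, FDR = 0.0056). Wrnip1, a partner of the Werner helicase, and Arhgap24, a GTPase-activating protein, were 2.23-fold (FDR = 0.0058) and 1.83-fold (FDR = 0.021) lower. These 5 genes were called in all 21 alternatives.

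Clstn1, a synaptic adhesion protein, was at 258, 235 and 226 in Control and 135, 133 and 147 in Moderate IOP (1.73-fold lower, FDR = 0.021). The matrix genes Tnc, Npnt and Efemp1 were lower 1.76-fold (FDR = 0.074), 1.58-fold (FDR = 0.049) and 1.59-fold (FDR = 0.072), whereas none of 21 tested collagens and laminins was a DEG (median 0.03). Slit2, a repulsive guidance cue, was at 8.90, 11 and 12.4 and at 5.92, 4.71 and 4.20 (1.98-fold lower, FDR = 0.055), the only DEG of 56 guidance genes (median −0.11). Among channels, the potassium channel subunit Kcnab1 (1.65-fold lower, FDR = 0.088) and the calcium channel subunit Cacnb1 (1.96-fold lower, FDR = 0.073) were the only DEGs of 59 potassium and 29 sodium and calcium channel genes. DEGs were 1.79% of guidance, 1.69% of potassium channel and 3.45% of sodium and calcium channel genes, beside 1.84% of all tested genes. A single DEG at such a share does not set a family apart. Gm6793, which the naming rule selected, was at 32.9, 36.1 and 36.1 and at 5.46, 10.3 and 21.8 (3.04-fold lower, FDR = 0.072).

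Large gene families of metabolism and protein synthesis had medians slightly above 0. Of 36 complex I subunits, 29 were above 0 with a median log2 fold-change of 0.23, and Ndufb3 (1.6-fold, FDR = 0.069) was the only DEG. Of 47 genes of complexes II to IV and ATP synthase, 39 were above 0 with a median of 0.24, and Atp5g2 (1.55-fold, FDR = 0.041) and Sdhc (1.48-fold, FDR = 0.064) were DEGs. Cytosolic ribosomal proteins had 74 of 79 above 0 and a median of 0.27, and mitochondrial ribosomal proteins 57 of 77 and 0.12, with no DEG in either. Of 37 proteasome subunits, 30 were above 0 with a median of 0.16, yet the only DEG was the lower Psmd2, a base subunit, at 307, 282 and 318 and at 220, 188 and 209 (1.47-fold lower, FDR = 0.048). Over all tested genes 50.5% were above 0 and 1.84% were DEGs, beside 2.78% of complex I and 4.26% of complexes II to IV and ATP synthase. Unadjusted limma p was below 0.05 with a higher level for 10 of 36 and 13 of 47 genes of these 2 lists. It was so for 17 of 79 cytosolic ribosomal, 10 of 77 mitochondrial ribosomal and 3 of 37 proteasome genes, and for 8.03% of all tested genes.

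Many stress and survival lists held no DEG at all. These were the 18 tested heat shock genes (median 0.04), 23 genes of ER stress and the integrated stress response (−0.03), 32 redox genes (0.09), 18 of the Bcl2 family and caspases (0.05), 20 neurotrophin, CNTF and TGF-beta genes (−0.04), 19 glycolytic enzymes (0.01), 21 circadian clock genes (−0.02), 53 translation initiation factors (0.04), 54 splicing factors (0.09), 36 axonal transport motors (0.07) and 12 glaucoma-linked genes (0.13). Sodium pumps and their Fxyd regulators had a median of 0.35 over 11 tested genes, 10 of them above 0, and no DEG. Unadjusted limma p was below 0.05 for 6 of these 11, all higher, beside 8.03% higher among all tested genes. Of the 32 redox genes it was so for 7 higher and 2 lower. Among long noncoding RNAs, Meg3 was higher (1.5-fold, FDR = 0.099) and was the only DEG of 11, and among lysosomal genes the cathepsin gene Ctsh was higher (2.17-fold, FDR = 0.077) and was the only DEG of 38. A list without a DEG is not shown to be equal between the pools, since limma without adjustment gave p below 0.05 for 15.3% of all genes (8.03% higher, 7.26% lower) and FDR below 0.1 for 1.84%.

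**Figure D4:**
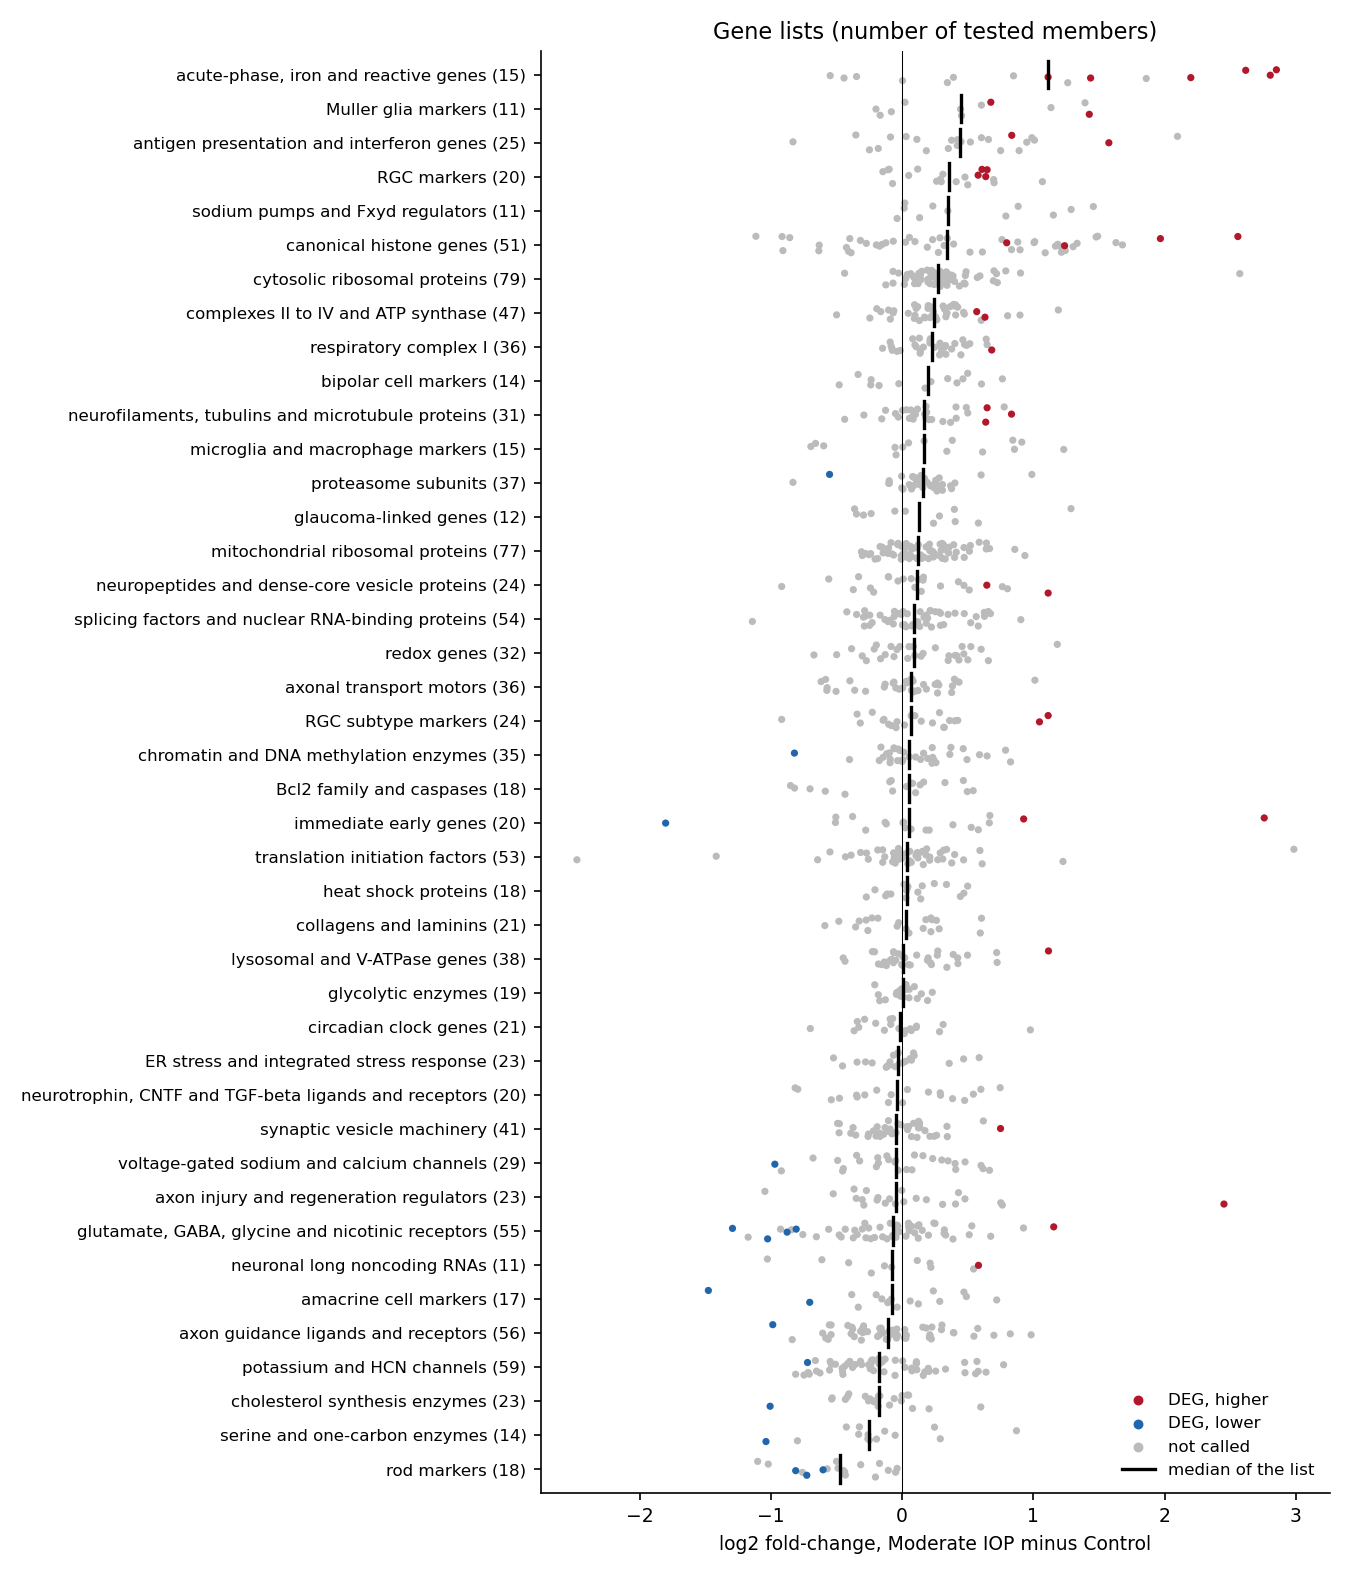
Log2 fold-change (Moderate IOP minus Control) of every tested member of the gene lists with at least 10 tested genes, lens and sex-linked genes left out, ordered by the median of the list (black tick), with DEGs in red and blue. The acute-phase, iron and reactive list had the highest median (1.11) and the rod markers the lowest (−0.47). The former includes genes that passed the filter only through Moderate IOP. Its median was 0.00 with a mean of at least 5 scaled FPKM required.

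The respiratory chain and ribosomal lists consist of short transcripts, and the fold-change moved with transcript length over all genes. The median log2 fold-change was 0.24 for 673 genes with a longest transcript of up to 1000 nt, 0.12 for 2107 genes up to 2000 nt, −0.02 for 5022 genes up to 4000 nt, −0.06 for 3917 genes up to 8000 nt and 0.02 for 711 longer genes. Higher DEGs were 2.82% of the shortest class and 0.383% of the class up to 8000 nt, while lower DEGs were 1.63% and 0.945%. Median transcript lengths were 1026 nt for complex I, 1094 nt for cytosolic ribosomal proteins, 586 nt for histones and 4688 nt for transmitter receptors. Of 145 genes with a mean above 500 scaled FPKM, 7 were higher DEGs and 0 were lower. The part of transcript length in the results was not tested.

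**Figure D5:**
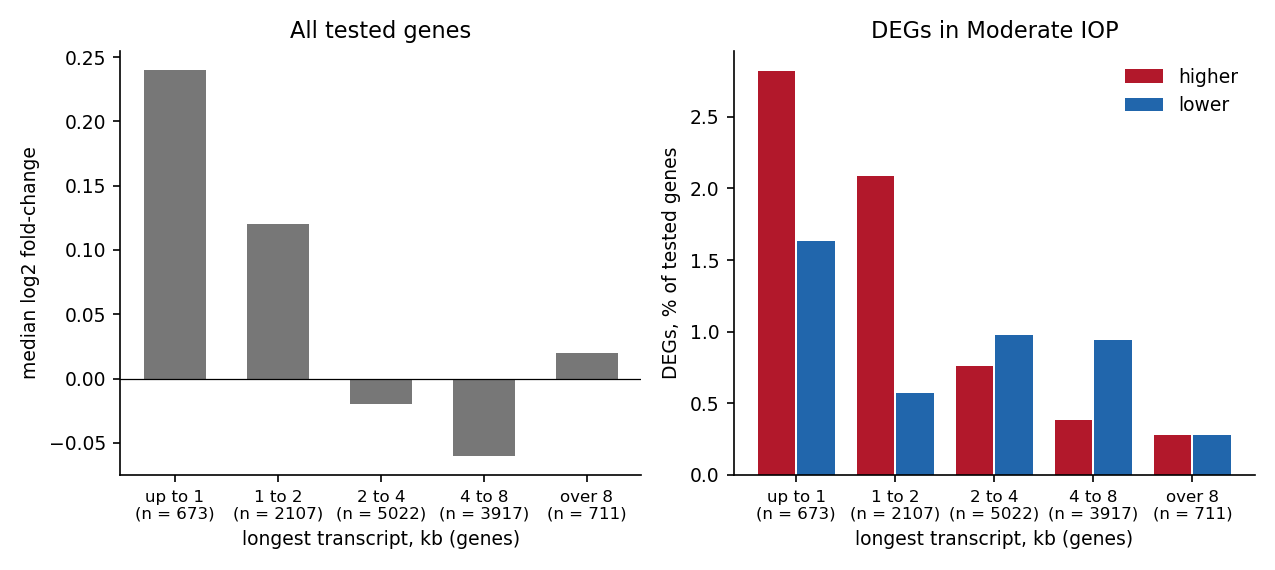
Median log2 fold-change of all tested genes (left) and DEGs as a percentage of tested genes (right) in 5 classes of longest transcript length in kb. The median falls from 0.24 in the shortest class to −0.06 at 4 to 8 kb, and higher DEGs are most frequent in the shortest class (2.82%).

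The Mild IOP libraries place these genes beside a smaller rise of IOP. Mild IOP shares the Control libraries with the comparison above, and Moderate IOP is shared by the direct comparison, so the values are only set side by side. Cartpt was at 337, 234 and 358 in Mild IOP (Moderate minus Mild log2 1.54, FDR = 0.0016, and Mild minus Control −0.42, FDR = 0.33). Slc6a9 was at 149, 148 and 142 (−1.88, FDR = 0.00022, and 0.40, FDR = 0.31). Sncg averaged 641 in Mild IOP, below its Control libraries (1.13, FDR = 0.0040, and −0.52, FDR = 0.20). For these genes Moderate IOP differed from both other groups, and Mild IOP and Control were not told apart by the test.

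Cebpd (log2 2.02, FDR = 0.0077), Lcn2 (2.84, FDR = 0.0090), Sprr1a (2.45, FDR = 0.0040), Irf9 (1.87, FDR = 0.0061) and Hist1h1e (1.96, FDR = 0.0040) were likewise higher in Moderate IOP than in Mild IOP. Prmt1 (−1.05, FDR = 0.0081), Nab2 (−1.29, FDR = 0.012) and Gabra2 (−1.71, FDR = 0.0085) were lower in Moderate IOP than in Mild IOP.

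Other DEGs had similar values in both IOP groups. Cryaa was at 1.2, 0.457 and 0.394 in Mild IOP (Moderate minus Mild log2 −0.72, FDR = 0.11, and Mild minus Control −6.08, FDR = 2.7e-07). Phgdh was at 24.5, 25.5 and 21.7 (−0.18, FDR = 0.53, and −0.86, FDR = 0.063), and Sag averaged 95 (0.05, FDR = 0.86, and −0.78, FDR = 0.063). Rlbp1 averaged 12.4 (0.19, FDR = 0.78, and 1.24, FDR = 0.20) and Cp 2.38 (0.42, FDR = 0.50, and 1.02, FDR = 0.27). A value of FDR above 0.1 in one comparison does not show that 2 groups were alike. Ddx3y averaged 8.88 in Mild IOP, above Control as well as Moderate IOP (−2.88, FDR = 0.0016, and 1.67, FDR = 0.049).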

How the data were processed

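The authors made oligo-dT primed cDNA from the RNA of each pool (SMART-seq v4), sequenced it and estimated expression per gene with cufflinks on mm10. The paper's methods name bowtie2 as aligner and the submitters' processing notes TopHat2. The deposited values are FPKM for each library, each with a confidence interval. Where a symbol had several loci, their FPKM were added (23997 symbols), and 2 genes with failed estimates were left out. Depth was derived from the intervals, as no totals were used here, and fragments per gene are derived numbers that run low for abundant genes. Scaling used the median-of-ratios method (factors 0.983 to 1.058 over the 9 libraries), and 1 was added before taking log2. The linear model (limma 3.58.1, R 4.3.3, variance trend) had 1 mean per group, used the 9 libraries and took genes whose scaled FPKM averaged 0.5 or more, and the contrast was Moderate IOP minus Control. No column of the authors' own tests was used. Transcript lengths were from GENCODE M21. The fit was also run on simulated libraries, with values drawn independently per gene at the spread of the technical replicates. That run cannot cover the spread between mice or shifts shared by the genes of a library.

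Genes were named by rule or after their values were seen. The rule took, in each direction, the 15 smallest p-values (higher group mean of at least 5) and the 10 largest changes (at least 20). These came from DEGs with a fold-change of at least 1.5 and groups that did not overlap. It also took DEGs and abundant members of the lists, qPCR genes and sex-linked genes. Other DEGs outside the lists, among them Actb, Isl2, Basp1, Nrn1, Serping1, Nsmf and Clstn1, were named after their values were seen. Some selected genes are not reported here. Members, lists and rules were chosen with earlier results of these data known.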

Additional observations from a re-analysis of the deposited data

How the results depend on the processing

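The number of DEGs was 240, of which 118 were higher and 103 lower by a fold-change of at least 1.5. It was 144 when only the 6 Moderate IOP and Control libraries entered the fit, with 53 lower by that fold-change, and 144 without the variance trend, with 67 higher by it. Without a filter on low values it was 187, with 74 higher by it. Scaling, quantile normalization, pseudocounts of 0.1 and 0.5, a mean of at least 5, failed estimates and robust moderation kept the number between 210 and 260, and without scaling 42% of the DEGs were higher. Leaving out a library gave 61 to 287 DEGs, with 33 to 160 higher and 28 to 102 lower by that fold-change. Libraries with the same replicate number did not deviate together (r = 0.002, 0.012 and −0.004), and a replicate block gave 135 DEGs, with 73 higher and 59 lower by that fold-change. The causes were not tested. Depth limits genes with few fragments, and p-values measure the spread of technical replicates.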
